A study of Mus musculus with 7 samples.

Results

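The Krüppel-like factor (KLF) genes followed here are Klf2, Klf4, Klf6, Klf7, Klf3, Klf10 and Klf13, a set of zinc finger transcription factor genes that are active in myeloid cells. Histone marks around them were mapped by CUTAC, an antibody-guided tagmentation assay run here without salt that releases accessible DNA next to the mark, in common monocyte progenitors (cMoPs) sorted from mouse bone marrow. The members are the distinct called intervals that overlap one of the 7 genes or lie within 100 kb of either of its ends (mm10), and 142 of the 105978 intervals of the 5 lists met this rule. The H3K4me2 lists, for a mark of promoters and enhancers, came from cells labelled WT (2 libraries) and DE (2 libraries), the names of the variants of an enhancer at -165 kb of Zeb2. The H3K4me3 list, for a mark of active promoters, came from 1 WT library. That library is of batch 1, and the H3K4me2 libraries are of batch 2. What was done to the enhancer in DE, and the strain and age of the mice, cannot be read from the labels. No label says that replicates came from separate animals, so any p below measures only the spread between these libraries.

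KLF proteins bind GC-rich and CACCC-type DNA through C2H2 zinc fingers at the carboxyl end, and the rest of the protein sets whether a target is switched on or off. Klf2, Klf4, Klf6 and Klf7 are mostly activators, Klf3 represses through the corepressor CtBP, and Klf10 and Klf13 repress through SIN3A. In the monocyte lineage Klf4 is needed for the development of inflammatory monocytes, Klf2 restrains the activation of monocytes, and Klf6 favours inflammatory gene expression in macrophages.

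The RefSeq promoter table (GRCm38.p6, the mm10 build) held a window for 6 of the 7 genes; Klf10 had none. Sequences of the 250 bases before the gene start are shown for Klf4 and Klf6, whose starts carried calls of both marks, and for Klf2, whose start carried H3K4me2 alone. They are chr4:55532476-55532725 (minus strand), chr13:5861239-5861488 (plus strand) and chr8:72318812-72319061 (plus strand), and they run 5′ to 3′. Capitals mark the GC box GGGCGG on either strand and, in Klf2 only, the match to the MEF2 motif.
Klf4: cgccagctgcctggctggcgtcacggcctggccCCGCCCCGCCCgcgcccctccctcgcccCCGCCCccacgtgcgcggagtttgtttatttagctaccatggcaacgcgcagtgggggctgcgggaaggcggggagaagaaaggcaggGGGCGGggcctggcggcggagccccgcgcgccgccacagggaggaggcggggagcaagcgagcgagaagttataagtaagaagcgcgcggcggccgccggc
Klf6: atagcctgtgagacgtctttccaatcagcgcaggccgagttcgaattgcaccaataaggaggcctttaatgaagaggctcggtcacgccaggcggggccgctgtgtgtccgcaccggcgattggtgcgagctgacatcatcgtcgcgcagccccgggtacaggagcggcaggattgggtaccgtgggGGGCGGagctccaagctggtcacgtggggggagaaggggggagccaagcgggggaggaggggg
Klf2: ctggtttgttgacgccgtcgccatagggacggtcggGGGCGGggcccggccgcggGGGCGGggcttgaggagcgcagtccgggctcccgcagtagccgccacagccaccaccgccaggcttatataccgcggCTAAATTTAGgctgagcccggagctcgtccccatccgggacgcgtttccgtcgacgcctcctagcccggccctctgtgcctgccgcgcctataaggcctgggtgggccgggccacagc
The Klf4 window held 4 matches to GGGCGG, of which a pair overlaps by 1 base, the Klf2 window held 2 and the Klf6 window 1. All 6 windows had at least 1 match, as did 35.9% of the 32544 promoter windows of the table. The 6 windows had a GC content of 58.3% to 76.7%, against a median of 53% over all windows. The part of base composition in the motif counts here and below was not tested. MEF2 factors are the targets of the ERK5 kinase, a known route to Klf2 and Klf4 expression. The MEF2 motif was matched in Klf2 alone, 118 to 109 bp before the start, and in 3.16% of all windows. CCACCC, a form of the motif that KLF proteins bind, was found in 4 of the 6 windows (31.6% of all), and the NF-kappaB motif in 2 (20.8% of all). Both strands were searched over the whole windows, which reach 50 bp past the start. No window matched GAGGAA, which the myeloid factor PU.1 binds (28.1% of all windows). The same held for the C/EBP motif TTGCNNAA (10.8% of all) and the AP-1 motif TGANTCA (7.79% of all). Likewise the CREB motif TGACGTCA (1.80% of all) was not found. The E-box CACCTG, a motif that ZEB2 itself binds, had no match either (20.3% of all), and the TATA box TATAAA had none (13.6% of all). A match is a run of letters and not a measured site.

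The lists of the WT libraries held 32354 (replicate 1) and 28152 intervals (replicate 2), those of the DE libraries 21968 and 17079, and that for H3K4me3 6425. Read totals are not in the lists; depth inferred from the values of the peaks was 1.04 to 1.47 times that of the background library in WT replicate 2 and the DE libraries, 3.81 times for H3K4me3, and no more than that of the background in WT replicate 1. The header line deposited with DE replicate 1 bears the name of DE replicate 2, so the main counts and differences between the genotypes are also given without it. Of 10 genes that mark monocyte progenitors, 9 had a call within 1 kb of a gene end in all 4 H3K4me2 lists (not Ms4a3). Of 28 genes of other lineages on the autosomes (B, T, erythroid and megakaryocyte, mast cell and basophil, mature neutrophil), 3 were called in all 4, namely Cd79b, Gp9 and Gata2. Pax5, Cd3e, Cpa3 and Camp were among those called in none, and Cd79a, Cd4, Tcf7, Epor, Cxcr2, Csf3r and Ltf among those called in some lists. Over all autosomal protein-coding genes 39.1% were called in all 4. Klf1 (erythroid) and S100a8 (neutrophil) were called in both DE libraries and neither WT library, a pattern of 0.223% of all genes. Without DE replicate 1 the pattern rests on DE replicate 2 alone, whose call follows from the pattern itself. The share of all genes called there and in neither WT library was not computed. The 6 neutrophil genes gave 1 and 0 calls for WT (replicate 1, then 2) and 1 and 3 calls for DE. The part of such cells in the results below was not tested.

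Every one of the 7 KLF genes had an H3K4me2 peak within 1 kb of a gene end in all 4 libraries. Over all 20665 autosomal protein-coding genes of the table the share was 39.1%. Each gene kept this call when peaks were limited to a −log10 q of at least 5 and when the lists were cut to equal length. An H3K4me3 peak lay within 1 kb of a gene end at 5 of the 7 genes, all but Klf2 and Klf7. Of all genes with H3K4me2 at a gene end in all 4 lists, 51% had such a peak, against 21.6% of all genes, and both marks together were called at 19.9% of all genes.

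The H3K4me2 intervals merged into 52 regions, of which 13 lay within 1 kb of an end of a KLF gene, 14 elsewhere inside one, and 14 outside but nearer to it than to any other protein-coding gene. The other 11 lay nearer to another gene, 10 of them in the window of Klf2. Overlap with a peak by 1 bp or more counted as a call of that library. In all 4 lists 17 regions were called (32.7%, against 30.2% of all autosomal regions), and 18 were called in 1 list only (34.6%, against 42.5%). Of the 13 regions at KLF gene ends 11 were called in all 4 lists, against 51.3% of autosomal regions within 1 kb of any gene end. Of the other 39 regions 6 were, against 16.3% of autosomal regions beyond 1 kb of any gene end. The latter pair is not alike, since 3 of the 6 lie over an end of a neighbouring gene in the Klf2 window. The 68 peaks of regions called in all 4 lists had a median of 25 fragments at the summit and a median list place of 24.7%. The 18 peaks called in 1 list had a median of 8.5 fragments and a median place of 74.6%, where the place is the rank by −log10 p as a share of the list. Without DE replicate 1, 17 of 51 regions were called in every remaining list. The share over all autosomal regions was not computed for that setting.

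**Figure D1:**
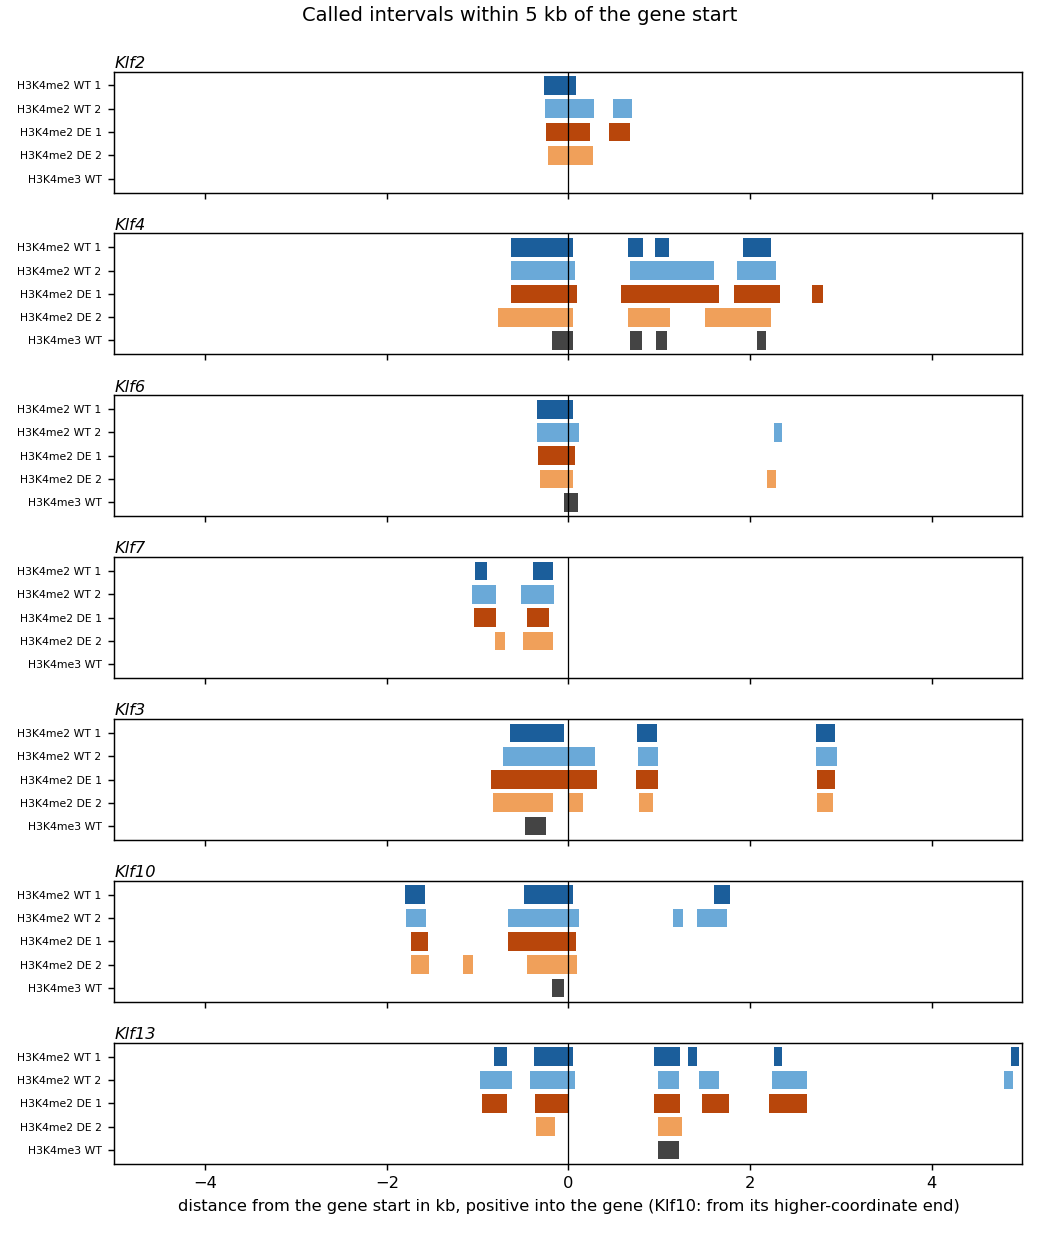
Called intervals by library within 5 kb of the gene start (horizontal axis, kb, positive into the gene; Klf10 from its higher-coordinate end), with 1 row for each of the 5 lists. Each gene has H3K4me2 intervals at or next to the start in every library, and the Klf2 and Klf7 panels show no H3K4me3 interval.

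Klf2 (gene ID 16598, 72319062 to 72321654 of chromosome 8) had 1 region over its start, 72318793 to 72319349, and 1 inside the gene. The fold of the start peak over its local background, the authors' own value within each library, was 6.18 and 5.54 for WT, and 3.57 and 4.12 for DE. Here and below each pair gives replicate 1 first. Both WT values lay above both DE values, whereas the places in the lists (45.1% and 26.0% in WT, 48.6% and 30.2% in DE) overlapped. This order by fold was found at 62.9% of genes with a gene-end peak in all 4 lists. That share also stands beside the gene ends below. The summits rested on 10 and 45 fragments in WT and 33 and 47 in DE, and lay 153, 57, 65 and 56 bp before the start. The MEF2 match shown above falls between the summit of WT replicate 1 and those of the other 3 libraries. The second region, 72319504 to 72319765, was called in WT replicate 2 (fold 7.24) and DE replicate 1 (fold 4.76), thus in 1 library of each genotype. No H3K4me3 peak was called at Klf2.

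The rest of the 100 kb around Klf2 belonged to its neighbours Fam32a, Ap1m1 and Eps15l1. The regions called in all 4 lists there were 72219613 to 72219844 over an end of Fam32a, 72239905 to 72240443 over an end of Ap1m1 and 72421391 to 72421927 over an end of Eps15l1. The Eps15l1 and Fam32a regions also carried H3K4me3 (fold 5.29 and 3.34). The Eps15l1 region, 99.7 kb from Klf2, had the lowest mean place of the 12 regions of the window and lay within the top 12.6% and 10.5% of the WT lists and 2.94% and 3.84% of the DE lists. The Fam32a peak took a place of 18.7% and 18.8% in WT and of 91.7% and 84.4% in DE. Its fold was 8.23 and 10.6 in WT and 3.17 and 3.48 in DE, so the genotypes did not overlap on either scale. By fold, 62.9% of genes with a gene-end peak in all 4 lists had both WT values the stronger, and by place 41.3%. The next interval past the 100 kb limit lay 100.3 kb away in WT replicate 1, with a fold of 3.79, against 8.94 for the last one within it.

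Klf4 (gene ID 16600, 55527137 to 55532475 of chromosome 4) had few regions, of which 3 of 4 were called in all 4 lists. No other protein-coding gene lies in its window. The region over the start, 55532380 to 55533252, had WT folds of 11.5 and 9.64 and DE folds of 16.7 and 4.70. The DE values stood on either side of the WT values, so the genotypes overlapped. The summits held 38, 49, 59 and 40 fragments in that order, and the H3K4me3 peak there (fold 4.98) held 72. In DE replicate 1 this peak took place 267 of the list, within the top 1.22%.

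The second Klf4 region, 55530143 to 55531891, began 584 bp inside the start and spanned 1749 bp of the gene. It was made of 3 separate intervals in WT replicate 1 and of 2 in each of the other H3K4me2 libraries, with 3 to 6 summits, and of 3 H3K4me3 intervals. The strongest peak had a fold of 7.79 and 15.9 in WT and of 8.99 and 7.63 in DE, which overlapped. That of H3K4me3 was 6.78. The third region, 55514776 to 55515163, lay 11974 bp beyond the far end of the gene and had no H3K4me3 call. Its fold was 16.7 and 19.3 in WT and 13.7 and 9.33 in DE, and its place in the lists was 3.69% and 8.65% in WT and 9.18% and 18.8% in DE. Both WT values lay above both DE values on both scales. Such an order was common at gene ends, as given below, and its share among regions away from them was not computed. Among the KLF regions more than 1 kb from a member's own end and called in all 4 lists, it ranked second after the Eps15l1 region. The summits of the 4 libraries fell within 70 bp of each other and rested on 18, 26, 22 and 18 fragments. The fourth region, 55529667 to 55529794, was called in DE replicate 1 alone with 8 fragments.

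Klf6 (gene ID 23849, 5861489 to 5870393 of chromosome 13) had a single region called in all 4 lists, 5861144 to 5861606 over the start. Its fold was 8.30 and 11.9 in WT and 4.48 and 6.55 in DE, and its place 26.4% and 18.3% in WT and 39.1% and 29.5% in DE. The WT values were the stronger on both scales, without overlap. Among genes with a gene-end peak in all 4 lists, this order held for 62.9% by fold and 41.3% by place. The share with both was not computed. Summits lay at 23 and 53 bp before the start in WT replicate 1 and DE replicate 1, and at -281 and -261 bp from it in WT replicate 2 and DE replicate 2. The H3K4me3 summit lay 1 bp past the start, with a fold of 4.41 from 39 fragments. The other Klf6 regions, 5863672 to 5863838 inside the gene and 5888386 to 5888490 at 18.0 kb, were called in WT replicate 2 with DE replicate 2, and in WT replicate 2 alone.

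Klf7 (gene ID 93691, 64029448 to 64122345 of chromosome 1), the close relative of Klf6, had a pair of gene-end regions called in all 4 lists and no H3K4me3 call in its window. The stronger region, 64121546 to 64121912, had folds of 8.64 and 9.25 in WT and 7.71 and 4.41 in DE, from 20, 47, 45 and 31 fragments. Its summits lay within 33 bp of each other, at -289 to -322 bp from the start of the promoter table, which is inside the gene bounds. The place was 17.0% and 12.6% in WT and 9.92% and 39.0% in DE. WT thus lay above DE by fold, and the genotypes overlapped by place. The second region, 64122086 to 64122456, covered the outer end of the gene model with folds of 4.10 and 9.65 in WT and 5.06 and 3.20 in DE, which overlapped. No region was called elsewhere inside the 92898 bp of the gene. The remaining one lay 56.4 kb away and was called in WT replicate 1 alone with 4 fragments. The promoter window of Klf7 had a GC content of 58.3% and 16 CpG dinucleotides, fewer than the other 5 windows (63.0% to 76.7% and 23 to 40). The median over all windows was 53% and 7.

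Klf3 (gene ID 16599, 64803521 to 64832901 of chromosome 5) had 3 regions called in all 4 lists, each at the start or within 2.73 kb of it. The innermost lies nearer to an end of the predicted gene Gm38457, which overlaps Klf3. The start region, 64802670 to 64803839, had folds of 7.68 and 20.3 in WT and 14.3 and 12.2 in DE. WT replicate 1 stood apart from the other 3 libraries, with a place of 26.7% against 3.97%, 3.64% and 4.30%, and with 14 fragments against 47, 42 and 44. The H3K4me3 interval, 64803045 to 64803270, had a fold of 4.77 and a summit at -397 bp from the start, among the H3K4me2 summits at -368 to -435 bp.

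Inside Klf3, the region 64804270 to 64804511 had folds of 6.07 and 6.21 in WT and 8.06 and 3.43 in DE, and 64806253 to 64806476 had 10.8 and 11.9 in WT and 7.84 and 4.41 in DE. The first overlapped between genotypes and the second did not, and neither carried H3K4me3. How common the order of the second is among regions away from gene ends was not computed. Of the 6 other Klf3 regions, which lay 8.26 to 31.8 kb from a gene end, 2 were called in 3 lists, 2 in 2 lists and 2 in WT replicate 1 alone.

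Klf10 (gene ID 21847, 38291464 to 38300711 of chromosome 15), a gene induced by TGF-beta, had a start peak whose places in the 4 lists lay closest together among the 7 genes. The region 38300591 to 38301380 over its higher-coordinate end held places of 8.40% and 7.42% in WT and 6.83% and 9.70% in DE. Its WT folds were 11.7 and 12.5 and its DE folds 8.95 and 7.46, so WT lay above DE by fold and the genotypes overlapped by place. The H3K4me3 peak there had a fold of 2.67 from 98 fragments and lay far down its list, at 87.7%. A second region, 38302242 to 38302508 at 1.53 kb beyond the same end, was called in all 4 lists with folds of 10.2 and 9.90 in WT and 8.67 and 6.18 in DE. Of the 8 other regions, 5 were called in 1 list, 2 in both WT libraries alone and 1 in 3 lists. One of these stood out, and was chosen after its values were seen. The region 38308479 to 38308691, 7.77 kb from the gene, was called in WT replicate 1 alone with a fold of 11.3 and 21 fragments, the highest fold of the 18 regions called in 1 list.

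Klf13 (gene ID 50794, 63886351 to 63938915 of chromosome 7), first known as a regulator of chemokine expression in T cells, had regions on both sides of its start. The strongest, 63937667 to 63937967, lay inside the gene with summits 1044 to 1118 bp past the start. Its fold was 9.14 and 15.1 in WT and 7.65 and 6.52 in DE, and its place 21.5% and 8.95% in WT and 24.0% and 29.2% in DE. The genotypes did not overlap on either scale. As at Klf6, the shares beside this order are 62.9% by fold and 41.3% by place, and that for both was not computed. The H3K4me3 peak of Klf13 was in this region (fold 6.40, summit 1040 bp past the start) and not over the start itself. The region over the start, 63938845 to 63939333, had folds of 5.85 and 5.98 in WT and 4.19 and 2.57 in DE, and took the place of 99.6% in DE replicate 2, close to the end of that list. The third gene-end region, 63939534 to 63939888, had folds of 5.11 and 6.76 in WT and 3.54 in DE replicate 1 and was not called in DE replicate 2. Of the 8 other Klf13 regions, 4 were called in 1 list, 3 in 2 lists and 1 in 3.

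**Figure D2:**
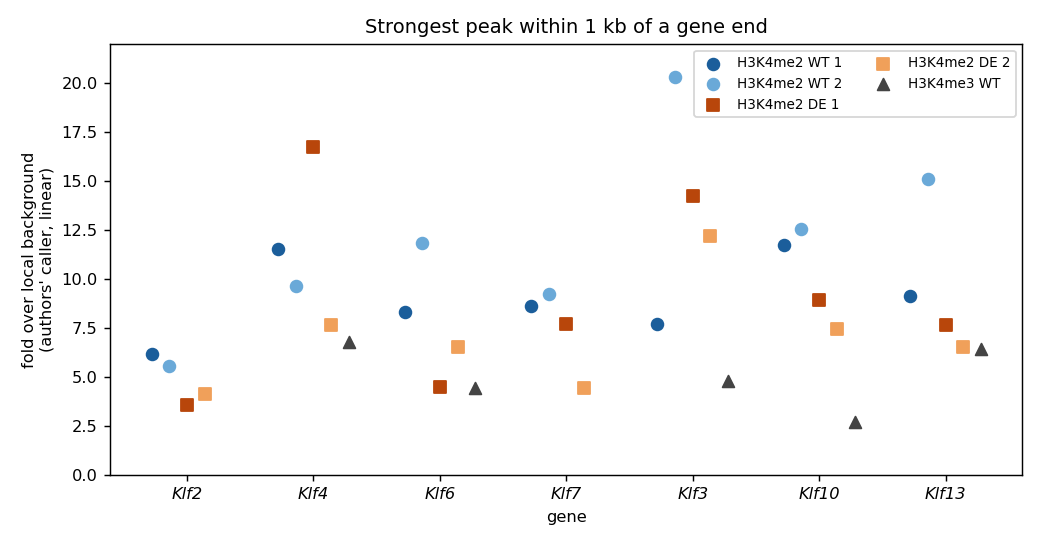
Fold over local background (vertical axis, linear, the authors' caller) of the strongest peak (by p) within 1 kb of a gene end, by gene and library; each point is 1 library. Klf3 of WT replicate 2 has the highest value (20.3) and Klf10 of the H3K4me3 library the lowest (2.67).

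The first genotype question was whether DE cMoPs differed from WT at the KLF gene ends. The peak of strongest p was taken in each library, for Klf4 in DE replicate 2 the one inside the gene. By fold, 5 of the 7 genes (Klf2, Klf6, Klf7, Klf10 and Klf13) had both WT values above both DE values and none had the reverse. The same held for 62.9% of the 8072 genes with a gene-end peak in all 4 lists, and the reverse for 1.86%. The median log2 ratio of the DE mean to the WT mean was -0.56 over the 7 genes and -0.59 over the 8072, so the KLF genes lay with the bulk of called genes. By place in the list, Klf6 and Klf13 had both WT values ahead of both DE values, 2 of 7 against 41.3% of those genes, and none had the reverse (7.19%). The fold is set by each library's own background and the place by the length of its list, and both differed between genotypes, so neither measures a change in the mark. Without DE replicate 1, 6 genes (Klf4 joined the 5) had both WT folds above that of DE replicate 2, against 79.5% of the 8267 genes called in the other 3 lists. By place the number was then 5 (all but Klf2 and Klf3), against 63.5%.

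**Figure D3:**
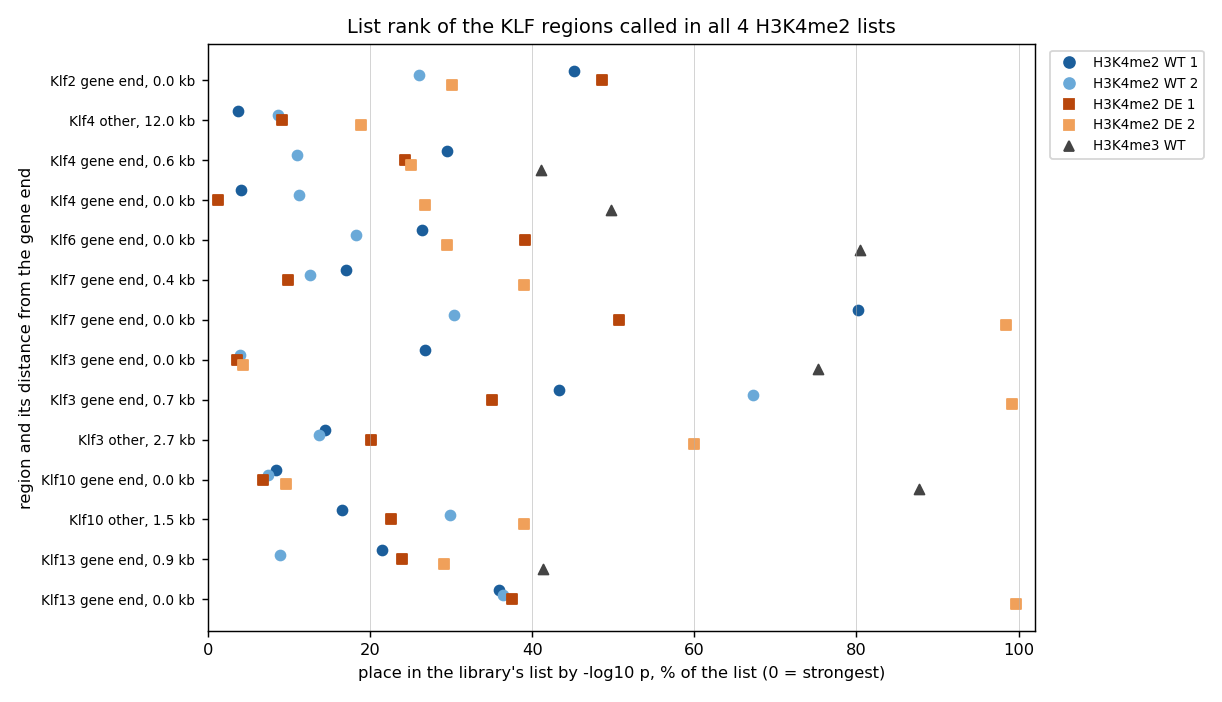
Place in the library's list by −log10 p (horizontal axis, % of the list, 0 = strongest) of the 14 regions called in all 4 H3K4me2 lists that lie in a KLF gene or nearest to one; each point is 1 library, with H3K4me3 where called. The Klf10 start region has its 4 H3K4me2 points between 6.83% and 9.70%, whereas that of Klf13 ranges from 35.9% to 99.6%.

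The second question was whether KLF regions were missing from the DE lists. Of the 52 regions, 6 were called in the pair of WT lists and absent from the DE lists (11.5%, against 8.77% of all autosomal regions). The reverse held for 0 regions (background 1.1%). Of the 28 regions called in both WT libraries, the 6 make up 21.4%, against 18.3% of all. They were 72226679 to 72226840 near Fam32a and 72350832 to 72350956 in Eps15l1 in the Klf2 window, 64813590 to 64813692 inside Klf3, 38298930 to 38299300 inside Klf10, 38373916 to 38374079 at 73.2 kb from Klf10, and 63933951 to 63934113 inside Klf13. None lay within 1 kb of a KLF gene end. Their peaks were weak, with 3 to 21 fragments at the summit and places from 44.8% to 99.3% of the WT lists. The DE lists were shorter, and with lists of equal length 1 of 30 KLF regions had this pattern (3.33%, against 3.65% of all autosomal regions). With the q limit above it was 2 of 28 (7.14%, against 12.3%). A left-out library loosens the pattern: without DE replicate 1 it held for 11 of 51 regions (21.6%, against 16.9% of all), without WT replicate 1 for 15 of 45 (33.3%, against 26.4%) and without WT replicate 2 for 13 of 43 (30.2%, against 33.6%). In the main count over the 4 lists, Klf4, Klf6 and Klf7 had no region with this pattern.

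**Figure D4:**
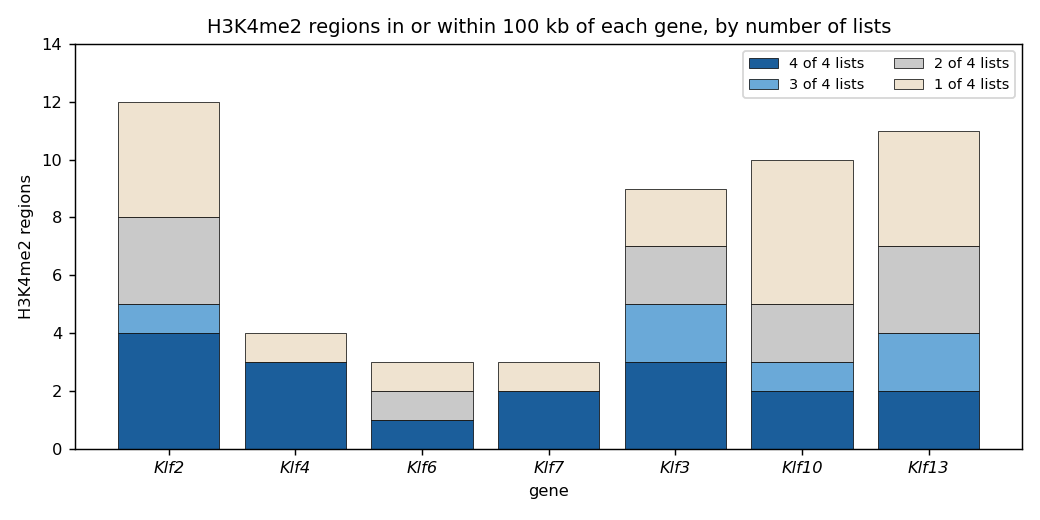
Number of H3K4me2 regions in or within 100 kb of each gene (vertical axis), divided by the number of the 4 H3K4me2 lists that called them. Klf2 has 12 regions and Klf6 and Klf7 have 3 each, and 3 of the 4 Klf4 regions were called in all 4 lists.

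The number of regions around a KLF gene differed widely. Klf2, Klf13, Klf10 and Klf3 had 12, 11, 10 and 9, above the median of 7 (quartiles 3 and 12) over all autosomal protein-coding genes, and Klf4, Klf6 and Klf7 had 4, 3 and 3. Relative to the length of the lists, the windows held 2.47 and 3.91 intervals per 10000 at Klf2 in WT and 2.73 and 2.34 in DE. Klf10 had 2.16 and 2.49 in WT and 1.37 and 1.76 in DE, and Klf4 had 1.55 and 1.42 in WT and 2.28 and 2.34 in DE. Klf3 had 2.16 and 2.49 in WT and 2.73 and 2.93 in DE. The genotypes thus did not overlap at 3 of the 7 genes. WT was the higher at Klf10 alone (1 of 7, against 17% of the 18997 genes with an interval in the window), and DE at Klf3 and Klf4 (2 of 7, against 24.4%), although Klf4 had the same raw numbers in WT and DE (5 and 4). The difference of DE from WT on the log2(value + 1) scale was -0.38 at Klf10 and 0.41 at Klf4 (exact two-sided permutation p = 0.333 for each, the smallest value that 2 against 2 libraries allow). At Klf3 it was 0.20 (exact p = 0.333), and at Klf2, Klf6, Klf7 and Klf13 it was -0.23, 0.11, 0.17 and -0.36 (exact p = 0.667 for each). Without DE replicate 1 the difference was -0.27 at Klf10, 0.43 at Klf4 and 0.24 at Klf3. With lists of equal length the sign turned at Klf4, Klf10 and Klf13 (-0.12, 0.17 and 0.12).

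The third question set the H3K4me3 list beside the H3K4me2 regions. An H3K4me3 peak was carried by 8 of the 52 (15.4%, against 14.5% of all autosomal regions), and all 8 were among the 17 called in all 4 H3K4me2 lists (47.1%, against 38.9% of such regions). Of these, 6 were at KLF gene ends (2 at Klf4 and 1 each at Klf6, Klf3, Klf10 and Klf13) and 2 at Fam32a and Eps15l1. All 10 H3K4me3 intervals of the windows lay in these 8 regions. The KLF peaks ranked in the middle or lower part of the H3K4me3 list, at 41.1% and 49.7% for Klf4, 41.3% for Klf13, 75.3% for Klf3, 80.5% for Klf6 and 87.7% for Klf10. With the same q limit, 4 of 28 regions carried H3K4me3, and the share over all autosomal regions was not computed for that limit. The H3K4me3 list is short, so a missing call at Klf2 and Klf7 is not a measured absence of the mark, and mark and batch cannot be told apart.

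Among 9 other KLF genes on the autosomes, 4 had a gene-end peak in all 4 H3K4me2 lists, namely Klf5, Klf9, Klf12 and Klf16, and Klf16 alone had H3K4me3 as well. Klf11 was called in 3 lists, and Klf14, Klf15 and Klf17 in none. Klf1, the erythroid factor, had its calls in the DE libraries, as given above. Of the 9 genes of the related SP family, Sp1, Sp3 and Sp8 were called in all 4 lists and Sp2, Sp6 and Sp9 in none. Of 12 genes for corepressors and coactivators of KLF proteins 7 were called in all 4. Among them were Ctbp2, a partner of Klf3, and Sin3a, a partner of Klf10 and Klf13, both with H3K4me3. Ctbp1 had H3K4me3 but lacked an H3K4me2 call in DE replicate 2, and Sin3b was called in WT replicate 1 alone. Kat2b, an acetyltransferase gene, was called in both WT libraries alone.

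Of 12 genes upstream of Klf2 and Klf4, 8 were called in all 4 lists, among them Map3k3 and Mapk7 of the ERK5 pathway, Mef2d, and the myeloid regulators Spi1, Irf8 and Cebpb. Map2k5, Mef2a and Mef2c were called in none. Of 4 genes for ubiquitin ligases of KLF proteins, Wwp1, Fbxw7 and Itch were called in all 4, and Smurf1 in both WT libraries alone. Of 10 monocyte genes linked to Klf2 and Klf4, 6 were called in all 4, among them Csf1r, Cd14, Ly6c2, Thbd and Tnfaip3. S1pr1, a receptor for lymphocyte egress, was called in both WT libraries alone, Itgam in DE replicate 1 alone, and Ccr2 and Nr4a1 in none. These counts stand beside the 39.1% of all genes called in all 4 lists. Calls in both WT libraries alone, as at Kat2b, Smurf1 and S1pr1, were found at 3.03% of all genes.

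The genes whose gene-end peaks had the most similar places in the 5 lists, by Euclidean distance with an absent call counted as 100%, were Uchl3 for Klf2 (distance 6.36 percentage points), Mmp24 for Klf4 (7.20) and Deptor for Klf6 (4.45). For Klf7 it was Ccdc30 (3.87), for Klf3 Mphosph8 (7.76), for Klf10 Fam20b (3.73) and for Klf13 Dtl (6.03). Several genes were nearly as close, from 2 at Klf6 to 39 at Klf4 within a distance of 2 times the smallest, so these neighbours are a description of 5 values each.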

How the data were processed

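CUTAC libraries of sorted mouse cMoPs were sequenced as paired reads of 150 bp, per the labels. Named in the submitters' processing notes are MACS2 (version 2.2.9.1), mm10, Bowtie2, Trimmomatic, Picard and SAMtools. The sources used here do not give settings, treatment of duplicates or the control. The authors' lists, 1 per library, hold for each summit a score (a whole number, 10 times the −log10 q), the fold of the pileup over local background as a ratio, the −log10 p and −log10 q, and the offset of the summit in bp, all as deposited.

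Of the 7 samples listed, the IgG and MDP libraries were not analysed here. Entries that share an interval were counted once, by the strongest p, on the 19 autosomes, X and Y. H3K4me2 intervals that touch or overlap were merged into regions. Gene bounds are those of RefSeq for GRCm38.p6, and 1-based coordinates are given. Fragments at a summit were solved from the fold and the p, taken as (pileup + 1) over (background + 1) and a Poisson tail, with pileups that are whole multiples of 1 unit within 0.01; 122 of 134 peaks gave 1 solution. Both steps were tested on simulated data. Named were all 7 genes, their gene-end regions, up to 3 further regions each among those called in all 4 lists, regions called in 1 genotype only, and genes of fixed lists. Intervals per 10000 were compared after adding 1, on the log2 scale, with an exact permutation test over libraries. Counts are shown beside the same share over all autosomal regions or genes, with no test. The members and lists were chosen with earlier results of these data known. Protein sequences were not used here. Python 3.11.15 with scipy 1.17.1 was used.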

Additional observations from a re-analysis of the deposited data

How the results depend on the processing

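Each of the 7 KLF genes kept a gene-end call in every H3K4me2 list with −log10 q from 5 upwards and with equal list lengths. The other alternatives, 2 kb in place of 1 kb and leaving out each library, cannot remove such a call. They are thus no test of it. With the stricter q the windows held 28 regions, 11 of them in all 4 lists, 2 in WT only and 4 with H3K4me3. With equal lengths they held 30 regions, 1 in WT only. Within 25 kb there were 33 regions, 3 in WT only. Leaving out 1 library at a time gave 6 to 15 regions in WT only and 0 to 1 in DE only. For these settings, shares over all autosomal regions were computed only for some of the WT-only counts, as given above. The other counts cannot be set against regions in general. By list place in place of fold, a setting chosen after seeing the data, 2 genes were stronger in both WT libraries, and 5 without DE replicate 1.

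Differences in intervals per 10000 (log2) changed sign at Klf2 within 25 kb or with only its own regions (0.22 for both), at Klf4 with equal lengths (-0.12), at Klf3 and Klf10 with the stricter q (-0.18 and 0.35), and at Klf10 and Klf13 with equal lengths (0.17 and 0.12). Leaving out 1 library gave -0.47 to 0.024 at Klf2, -0.22 to 0.44 at Klf6 and -0.75 to 0.034 at Klf13. The cause was not tested. Libraries of the same number did not deviate together (r = -0.022 over 11891 regions). With the replicate number as a block the differences were as given, with exact p of 0.5 at Klf4, Klf6, Klf3 and Klf10 and 1 at Klf2, Klf7 and Klf13, where 0.5 is the smallest possible. No call was possible with or without the block. Regions called in 1 list rested on 3 to 21 fragments, and at the lower numbers a missing call in another library is not a measured absence.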
